A study of Mus musculus with 45 samples.

Results

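Microglia in organotypic brain slices exposed to granulocyte-macrophage colony-stimulating factor (GM-CSF, 20 ng/mL, 24 h) were compared with microglia from slices kept in medium alone for the same time. The comparison holds 18 of the 45 RNA sequencing samples of the series, 9 per group, chosen by the treatment named in their labels. A further 11 slice samples, treated with TNF (50 ng/mL, 24 h), shared the statistical fit, which gave 29 slice libraries in all. All slices came from C57BL/6 mice. Per the study's methods, they were coronal sections of neonatal brain, grown on membrane inserts for 2 weeks in a serum-containing medium to which human PDGF was added. Microglia were sorted as live cells, high for CD11b and intermediate for CD45. Each sample pooled slices (3 per the labels, while the methods also allow fewer), so a library is not 1 slice. How many animals gave the slices of a pool, and whether libraries shared an animal, is not given. The p-values measure the spread between such pools. Per the study's legends, the data were pooled over 4 independent experiments. The sample titles carry 4 codes that the sources do not explain, here called title codes. Whether the codes mark the experiments is not stated, and the main fit left them out and treated the pools as independent. Medium has 3 libraries of code 1A, 1 of 1B, 2 of 2A and 3 of 2B, and GM-CSF has 2, 2, 2 and 3.

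GM-CSF is a hematopoietic growth factor that acts on myeloid cells. Its receptor joins a specific alpha chain (*Csf2ra*) with a beta chain (*Csf2rb*) shared with the IL-3 and IL-5 receptors, and it signals through the kinase JAK2 to the transcription factor STAT5, which switches on feedback inhibitors such as *Cish* and *Socs2*. Microglia, the resident macrophages of the brain, depend on another colony-stimulating factor receptor, that for M-CSF (*Csf1r*), and in healthy tissue carry a set of homeostatic genes such as *P2ry12*, *Tmem119* and *Sall1*. In macrophages and dendritic cells of other tissues, GM-CSF is known for supporting survival, growth and antigen presentation.

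Library totals ran from 6123220 to 9165485 counts, and 10652 to 11280 genes had at least 10 counts in a library. Mitochondrial genes took 0.458% to 1.015% of counts. The groups were apart on the first principal component of the 18 libraries, which held 20.4% of the variance, with medium at -30.41 to -24.36 and GM-CSF at 21.97 to 36.41. On the second component (9.83%) libraries of title code 2B were the lowest of both groups, at -31.38 to -10.13 in medium and -40.71 to -13.42 with GM-CSF, against 0.16 to 34.18 and -9.09 to 29.01 for the other codes. The factors that scale each library by its bulk of genes (TMM) also differed between the groups without overlap, at 0.9797 to 1.011 in medium and 1.054 to 1.098 with GM-CSF. Every library held counts of either *Xist* or Y-linked genes and never both, 5 and 4 libraries in medium and 6 and 3 with GM-CSF.

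The label of microglia was checked against markers. All 14 microglia markers were detected, and their summed level was 43330 to 56360 CPM in medium and 33890 to 39010 CPM with GM-CSF. CPM are counts scaled for library size, by total counts alone for summed markers and with TMM for single genes. Of the 14, 6 were called lower by the test described next. Summed markers of border macrophages were at 560.2 to 1322 CPM in medium and 483.4 to 1238 CPM with GM-CSF. Those of monocytes were at 759.3 to 1880 CPM and 1596 to 3840 CPM, of which most was *Fn1*, a matrix protein that macrophages also make. Among the defining monocyte genes, *Plac8* had 0 counts, *Ly6c2* 3 counts and *Ccr2* 140 counts over the 18 libraries. Neutrophil markers summed to 122.8 to 202.5 CPM in medium and 67.1 to 143.3 CPM with GM-CSF, most of it *Csf3r*, the G-CSF receptor, with *Camp*, *Ltf* and *Ly6g* at 0. The other 3 tested neutrophil markers had positive fold changes and were not called by edgeR: *S100a8* (log2 fold change 1.72, adjusted p = 0.0638), *S100a9* (2.53, adjusted p = 0.234) and *Mmp8* (2.06, adjusted p = 0.0826). *S100a8*, which encodes a calcium-binding protein of neutrophils and monocytes, was at 0.134 to 9.21 CPM (median 1.59) in medium and 1.08 to 21.2 CPM (median 5.53) with GM-CSF, so the groups overlapped. It passed the test with DESeq2 (adjusted p = 0.0395), under total-count scaling (0.0475) and without GM-CSF 1, GM-CSF 3 or medium 2 (log2 fold change up to 2.32). *Ngp*, a neutrophil granule gene, had 70 counts in 3 libraries, all with GM-CSF, and *Chil3* had 118 of its 120 counts in GM-CSF libraries. Lymphocyte markers summed to at most 39.9 CPM, mostly *Cd4*, with *Cd3d*, *Cd8a*, *Ncr1* and *Nkg7* at 0. Oligodendrocyte markers summed to 230.8 to 356.2 CPM in medium and 190.4 to 317.9 CPM with GM-CSF, astrocyte markers to 68.2 to 120 and 45.1 to 88.4 CPM, endothelial and mural markers to at most 25.9 CPM and neuron markers to at most 11.6 CPM. The part of these other cells in the results was not tested. In bulk libraries, fewer cells that express a gene and less of its RNA per cell cannot be told apart.

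**Figure D1:**
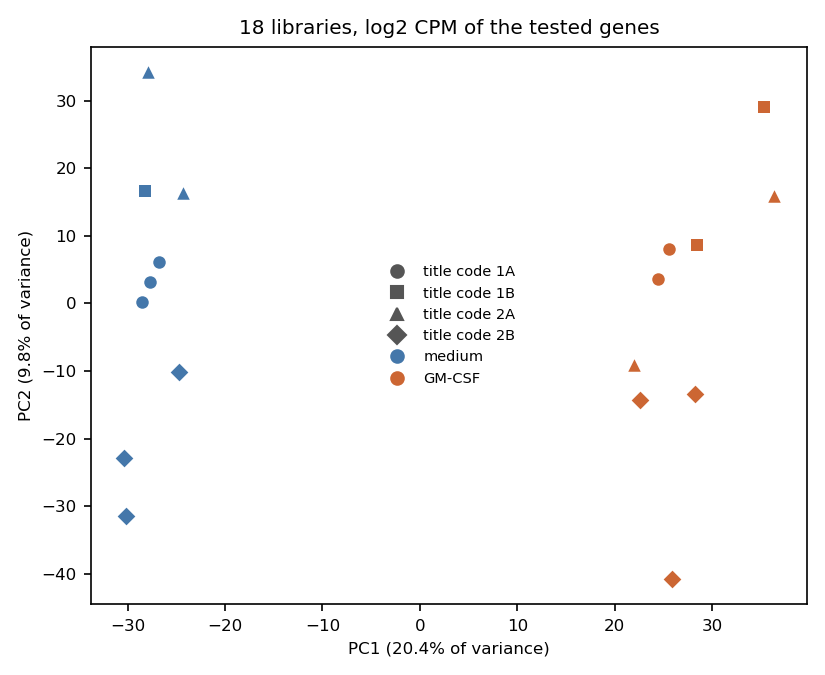
First (x) and second (y) principal components of log2 CPM over all tested genes in the 18 libraries, with the percent of variance on each axis; color gives the treatment and the symbol the title code. Medium libraries lie between -30.41 and -24.36 on the first component and GM-CSF libraries between 21.97 and 36.41, and libraries of code 2B lie lowest on the second in both groups.

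Of the 55450 genes listed, 11313 had enough counts to be tested. Genes were called where the adjusted p was under 0.05 and the fold change over 1.5, which 1222 genes (10.8%) met, 548 higher (4.84%) and 674 lower (5.96%) with GM-CSF. The split rests on the scaling. With libraries scaled by total counts instead of TMM, 817 genes were called higher and 459 lower, and the median difference over all tested genes went from -0.0391 to 0.066 on the log2 scale. Fold changes reached further upward than downward: 65 called genes rose by more than 2 on the log2 scale and 30 fell by as much. The 9 libraries of each group did not overlap for 454 of the called genes, 240 higher and 214 lower, where 634 of all tested genes (5.60%) did not overlap. In the separate title codes, 1162 of the 1222 called genes (95.1%) differed in the same direction in all 4. The genes were called on these same libraries, so part of that agreement is built in, and code 1B holds 1 medium library. Calls were more frequent among abundant genes, with 15.6% of the 2083 genes over 100 CPM, 10.9% of the 6325 genes from 10 to 100 CPM and 7.23% of the 2905 genes below 10 CPM. Standard errors of the log2 fold changes had a median of 0.16, and 1181 of the called genes were protein coding. In the results that follow, rose and fell are used for called genes, and a lone number in parentheses after a gene is its log2 fold change, GM-CSF minus medium.

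**Figure D2:**
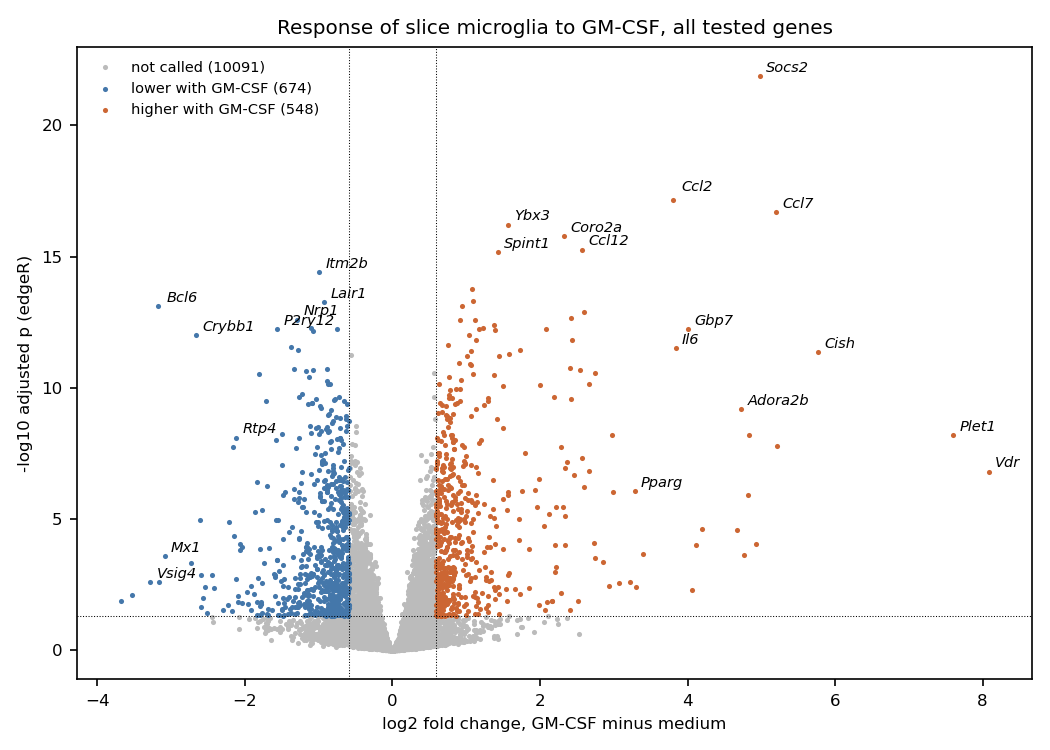
Log2 fold change of GM-CSF minus medium (x) against -log10 of the adjusted p from edgeR (y) for the 11313 tested genes, one point per gene; dotted lines mark the adjusted p of 0.05 and the fold change of 1.5. The 548 genes called higher extend further from 0 than the 674 called lower, with *Socs2*, *Ccl2* and *Ccl7* highest on the y axis and *Itm2b*, *Lair1* and *Bcl6* highest among lower genes.

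The gene with the smallest p of all was a feedback inhibitor of the receptor. *Socs2* (chromosome 10, 95385362 to 95417180, GRCm38), an inhibitor of JAK-STAT signaling, was at 2.33 to 8.86 CPM (median 5.74) in medium and 146 to 192 CPM (median 168) with GM-CSF (log2 fold change 4.98 ± 0.16, SE, adjusted p = 1.3e-22). *Cish* (chromosome 9, 107296026 to 107302784, GRCm38), a STAT5-induced inhibitor of the same family, was near the detection limit in medium, at 0 to 1.09 CPM (median 0.108) in medium and 14.3 to 34.1 CPM (median 20.6) with GM-CSF (log2 fold change 5.77 ± 0.45, SE, adjusted p = 4.4e-12). For both genes every GM-CSF library stood far above the highest medium library. No other SOCS gene was called by edgeR, and *Socs3* had a log2 fold change of 0.29 (adjusted p = 0.142). Of 18 tested feedback genes, 3 rose and 1 fell, the third that rose being *Dusp5*, a phosphatase of ERK (log2 fold change 1.02 ± 0.18, SE, adjusted p = 5.49e-05). The gene that fell was *Dusp1*, another such phosphatase (-1.1), which lost its call without GM-CSF 4 or without medium 2 (adjusted p up to 0.0691). The list's median was -0.18, against -0.0391 over all genes.

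The beta chain of the receptor rose, while the alpha chain was not called. *Csf2rb*, the signaling beta chain, was at 108 to 139 CPM (median 135) in medium and 241 to 304 CPM (median 284) with GM-CSF (log2 fold change 1.09 ± 0.07, SE, adjusted p = 4.82e-14), and its groups did not overlap. The neighboring paralog *Csf2rb2*, whose protein serves IL-3 alone, went from a median of 61.9 to 82.7 CPM (log2 fold change 0.47, adjusted p = 0.000752), and reads shared between the near-identical pair could not be assigned with certainty. The alpha chain *Csf2ra* stood at a median of 180.0 CPM in medium and 182 CPM with GM-CSF (log2 fold change 0.06 ± 0.08, SE). *Csf3r*, the G-CSF receptor, fell (log2 fold change -0.91 ± 0.11, SE, adjusted p = 7.12e-08). *Csf1r* was at 4187 to 5734 CPM (median 5029) in medium and 3123 to 4117 CPM (median 3619.5) with GM-CSF. Its log2 fold change of -0.44 was under the fold limit, although the groups did not overlap. Its ligand gene *Csf1* was at 71.7 to 181 CPM (median 139) in medium and 88.2 to 156 CPM (median 132) with GM-CSF and was not called (0.11, adjusted p = 0.715). Transcripts of GM-CSF and IL-3 were hardly present, as *Csf2* had 5 counts in 1 medium library and *Il3* had 0. Among the 10 tested kinases and STATs, 0 rose and 3 fell (2 with DESeq2 and 1 under total-count scaling). Among those that fell was *Stat2*, which carries the type I interferon signal (log2 fold change -0.78 ± 0.15, SE, adjusted p = 0.000133). *Jak3*, which serves receptors with the common gamma chain, fell too, by 0.59 on the log2 scale, close to the fold limit, and lost its call without any single one of 6 libraries (GM-CSF 2, 4, 8 and 9, medium 5 and 7; log2 fold change -0.58 to -0.55). The kinase and factor next to the GM-CSF receptor were not called, at -0.15 for *Jak2*, -0.20 for *Stat5a* and 0.12 for *Stat5b*.

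Known target genes of STAT5 changed in both directions. Of 16 tested, 7 rose and 1 fell, with a median log2 fold change of 0.42. Besides *Cish* and *Socs2*, the genes that rose were *Ccnd2* and *Ccnd1*, cyclins of the G1 phase (1.76 and 0.73), *Myc*, a driver of growth (1.44), *Pim1*, a survival kinase (1.57), and *Osm*, the cytokine oncostatin M (0.66). *Pim1* was low and overlapped, at 0.448 to 3.505 CPM in medium and 2.75 to 8.005 CPM with GM-CSF. Its call was lost in title codes 1A and 1B alone (edgeR adjusted p = 0.161), and that of *Osm* in 2A and 2B alone (0.0913). The gene that fell was *Bcl6* (chromosome 16, 23965052 to 23988852, GRCm38), a transcriptional repressor that competes with STAT5 at shared sites. It was at 46.5 to 74 CPM (median 56.8) in medium and 2.33 to 12 CPM (median 6.28) with GM-CSF (log2 fold change -3.17 ± 0.21, SE, adjusted p = 7.82e-14), so that the GM-CSF library with the most *Bcl6* stayed far below every medium library.

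STAT5 dimers bind the 9-letter motif TTCNNNGAA, which reads the same on both strands and is shared with other STATs. The 300 bases around each gene's start in RefSeq (GRCm38.p6, 250 before and 50 after) held it, in at least 1 window per gene, in 737 of 8875 tested genes (8.30%), in 52 of 437 genes called higher (11.9%) and in 41 of 513 called lower (7.99%). Over all 32851 windows the share was 8.30%. At least 2 copies in a window were found for 47 of the 8875 tested genes, for 7 of the 437 called higher and for 3 of the 513 called lower. The 3 windows shown here belong to genes with at least 2 copies and a log2 fold change of at least 3 in size, which puts *Cish* and *Gbp7*, both higher, beside *Bcl6*, which was lower. The first 280 bases are printed 5′ to 3′ on the gene's strand, and capitals mark the motif. No window was at hand for *Socs2*, *Ccl2* and *Ccl7*.
Cish, chr9:107296409-107296688, plus strand: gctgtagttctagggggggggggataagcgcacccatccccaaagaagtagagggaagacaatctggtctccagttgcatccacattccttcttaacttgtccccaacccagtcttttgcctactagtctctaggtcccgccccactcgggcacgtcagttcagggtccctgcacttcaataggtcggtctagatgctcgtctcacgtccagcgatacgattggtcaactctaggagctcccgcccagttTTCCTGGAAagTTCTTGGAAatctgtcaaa
Gbp7, chr3:142530086-142530365, plus strand: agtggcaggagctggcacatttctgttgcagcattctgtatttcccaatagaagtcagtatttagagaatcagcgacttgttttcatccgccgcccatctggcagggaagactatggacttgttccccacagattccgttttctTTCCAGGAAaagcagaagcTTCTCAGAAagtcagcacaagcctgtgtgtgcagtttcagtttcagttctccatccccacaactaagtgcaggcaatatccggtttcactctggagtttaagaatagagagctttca
Bcl6, chr16:23981254-23981533, minus strand: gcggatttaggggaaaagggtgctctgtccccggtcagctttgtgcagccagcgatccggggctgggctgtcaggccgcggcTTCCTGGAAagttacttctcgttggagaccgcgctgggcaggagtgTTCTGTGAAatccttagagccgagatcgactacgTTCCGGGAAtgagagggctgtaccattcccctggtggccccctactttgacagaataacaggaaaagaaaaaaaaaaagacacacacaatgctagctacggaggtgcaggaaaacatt
In *Cish* the copies begin 0 and 11 bases from the start site, and in *Gbp7* 106 and 87 bases before it. In *Bcl6* they begin 168, 122 and 88 bases before the start site that the window shown surrounds. *Bcl6* has 2 windows in the table, and the other, at a start further upstream, held 1 copy. A match describes these letters and is not a measured binding site.

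**Figure D3:**
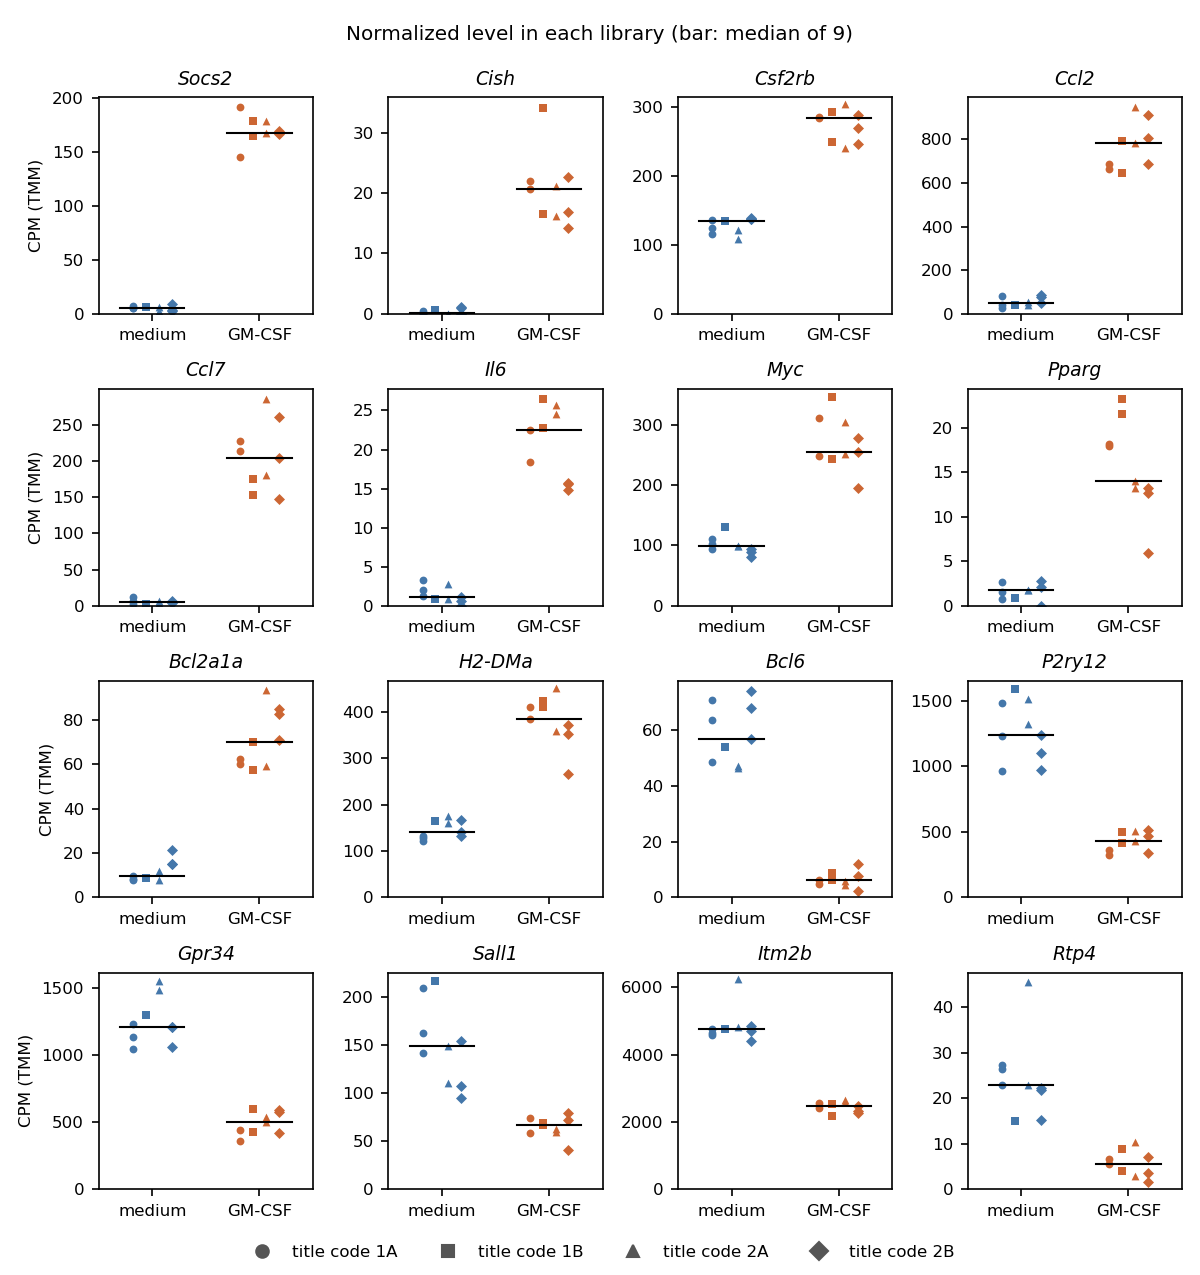
TMM-scaled level (CPM, linear axis from 0) of 16 genes in each library; color gives the treatment, the symbol the title code and the bar the median of 9. In *Socs2*, *Cish*, *Ccl2*, *Ccl7* and *Il6* every GM-CSF library lies above every medium library, and in *Bcl6*, *P2ry12* and *Itm2b* every one lies below.

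Chemokines that attract monocytes rose. *Ccl2*, *Ccl7* and *Ccl12*, ligands of the receptor CCR2, lie together on chromosome 11 (GRCm38, 82035571 to 82103400). *Ccl2* was at 27.6 to 84.8 CPM (median 49.4) in medium and 644 to 947 CPM (median 783) with GM-CSF (log2 fold change 3.8 ± 0.16, SE, adjusted p = 6.74e-18). *Ccl7* was at 2.28 to 12.4 CPM (median 4.71) in medium and 148 to 286 CPM (median 204) with GM-CSF (log2 fold change 5.2 ± 0.23, SE, adjusted p = 2.09e-17), and *Ccl12* at 456 to 1016 CPM (median 581) in medium and 3269.6 to 5872 CPM (median 4097) with GM-CSF (log2 fold change 2.57 ± 0.14, SE, adjusted p = 5.46e-16). None of these 3 overlapped between groups. *Ccl6*, a chemokine that binds CCR1, rose from a median of 637 to 2922 CPM (log2 fold change 2.19), and its receptor gene *Ccr1* rose too (1.24). *Cxcl3*, a neutrophil attractant, rose at a low level, from a median of 0 to 1.87 CPM with overlap (log2 fold change 4.66 ± 0.80, SE, adjusted p = 2.69e-05). Its 6 counts in medium came from 1 library, medium 7, without which the fitted value was 7.32. In all, 6 of 19 tested chemokines rose and 2 fell. The B cell attractant *Cxcl13* fell (log2 fold change -2.59 ± 0.59, SE, adjusted p = 0.00135), from 0.669 to 24.4 CPM in medium to 0 to 5.2 CPM with GM-CSF, which overlaps, and its call was lost with limma-voom (adjusted p = 0.184). Among 11 tested chemokine and chemoattractant receptors, 2 rose and 4 fell, including *Ccrl2*, a nonsignaling chemerin receptor (-0.99).

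Of 23 tested cytokines and growth factors, 5 rose and 6 fell. *Il6*, an inflammatory cytokine, was at 0 to 3.35 CPM (median 1.11) in medium and 14.8 to 26.4 CPM (median 22.5) with GM-CSF (log2 fold change 3.84 ± 0.30, SE, adjusted p = 2.97e-12). *Hbegf*, a ligand of the EGF receptor, was at 0 to 7.59 CPM (median 2.39) in medium and 12.2 to 19.7 CPM (median 16.1) with GM-CSF (log2 fold change 2.46 ± 0.32, SE, adjusted p = 2.03e-07). Both were low in medium and had no overlap. The 2 forms of interleukin 1 rose less, *Il1a* from a median of 58.2 to 113 CPM (log2 fold change 0.97) and *Il1b* from 8.93 to 25.3 CPM (1.49). Those that fell included *Pdgfb*, a chain of platelet-derived growth factor (log2 fold change -1.11 ± 0.12, SE, adjusted p = 5.11e-09), *Igf1*, insulin-like growth factor 1 (log2 fold change -1.02 ± 0.20, SE, adjusted p = 0.000244), and *Il16*, a chemoattractant of CD4 cells (log2 fold change -0.94 ± 0.11, SE, adjusted p = 5.4e-08). *Il18bp*, which neutralizes IL-18, fell as well (-0.80).

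Many genes of growth and biosynthesis rose, while the BCL2 family was mixed, with 3 of 18 higher, 2 lower (1 under total-count scaling) and a median of -0.07. The BCL2 family member BCL2A1, which protects myeloid cells from apoptosis, is encoded by near-identical copies. *Bcl2a1a* was at 7.77 to 21.5 CPM (median 9.53) in medium and 57.4 to 93.4 CPM (median 70.3) with GM-CSF (log2 fold change 2.6 ± 0.17, SE, adjusted p = 1.26e-13) and *Bcl2a1d* at 6.61 to 13.8 CPM (median 11.1) in medium and 42.1 to 83.7 CPM (median 57) with GM-CSF (log2 fold change 2.43 ± 0.17, SE, adjusted p = 2.19e-13), and how reads were split between the copies is uncertain. The third that rose, *Bcl2a1b* (0.62), is another copy and lost its call without medium 4 (0.58). *Bcl2l11*, which encodes the death-promoting BIM, fell (log2 fold change -1.02 ± 0.23, SE, adjusted p = 0.000771). *Myc* was at 79.9 to 131 CPM (median 98.6) in medium and 195 to 346 CPM (median 255) with GM-CSF (log2 fold change 1.44 ± 0.11, SE, adjusted p = 5.98e-12), without overlap. Of 20 genes for making ribosomes, 15 rose and 0 fell, all 20 were above 0, and their median log2 fold change was 0.82. *Rrp12*, which helps to export ribosomal subunits, went from a median of 10.4 to 25.1 CPM (log2 fold change 1.33 ± 0.31, SE, adjusted p = 0.00108), *Dkc1*, the pseudouridine synthase dyskerin, from 27.2 to 68.9 CPM (log2 fold change 1.29 ± 0.12, SE, adjusted p = 3.23e-10), and *Nop56*, a core protein of small nucleolar RNPs, from 77.6 to 131 CPM (log2 fold change 0.83). *Hspd1*, the mitochondrial chaperonin HSP60 (1.08), and *Eef1g*, a translation elongation factor (0.92), had p-values among the 15 smallest of genes that rose.

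Of 26 genes of serine, one-carbon and amino acid supply, 12 rose and 0 fell, with a median of 0.49. *Slc7a2*, a transporter of arginine and other cationic amino acids, was at 0 to 5.2 CPM (median 2.39) in medium and 8.25 to 24.2 CPM (median 17.4) with GM-CSF (log2 fold change 2.66 ± 0.34, SE, adjusted p = 1.5e-07). *Slc7a5*, the large neutral amino acid transporter, rose from a median of 103 to 253 CPM (1.49) and *Slc1a5*, which carries glutamine, from 45 to 107 CPM (1.3). *Shmt2*, the mitochondrial enzyme that splits serine into glycine and a one-carbon unit, rose (log2 fold change 1.18 ± 0.09, SE, adjusted p = 5.91e-13), and so did *Asns*, asparagine synthetase (1.24). Sterol synthesis showed a smaller shift, with 3 of 23 genes called higher, where 4.84% of all tested genes were. *Sqle* (squalene epoxidase, 0.74) and *Hsd17b7* (0.75) were among them. The call of *Sqle* was lost in title codes 1A and 1B alone (0.35) and that of *Hsd17b7* in 2A and 2B alone (0.55). *Acly*, which makes cytosolic acetyl-CoA for fatty acids and sterols, rose (log2 fold change 1.06 ± 0.08, SE, adjusted p = 3.83e-12). Glycolysis genes were not called higher: 0 of 26 rose and 3 fell under TMM, and 2 rose and 2 fell under total-count scaling. *Pfkfb3*, which sets the level of a glycolytic activator, fell (log2 fold change -0.96 ± 0.12, SE, adjusted p = 6.66e-08).

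Of 44 cell cycle genes, 10 rose and 0 fell, with a median of 0.27. *Ccnd2* was at 1.88 to 10.6 CPM (median 6.16) in medium and 13.3 to 30.7 CPM (median 16.7) with GM-CSF (log2 fold change 1.76 ± 0.24, SE, adjusted p = 8.19e-07). The other genes that rose act in G1 and DNA replication: *Tyms*, thymidylate synthase (1.06), *Cdc6*, which loads the replicative helicase (1.28), *Ccne1*, a cyclin of the G1 to S transition (0.69), and *Mcm2*, *Mcm4* and *Mcm7*, subunits of that helicase (0.76, 0.67 and 0.73), with *Ccnd1* as given above. A further pair lay close to the fold limit. *Ccne2* (0.63) lost its call without library GM-CSF 9 or medium 2 (log2 fold change 0.56 to 0.57), and *Mcm6* (0.59) without any single one of 9 libraries (GM-CSF 1, GM-CSF 3, GM-CSF 5, GM-CSF 7, medium 1, medium 2, medium 3, medium 7, medium 9; log2 fold change 0.56 to 0.58). The lowest value of the list was that of *Ccnb2*, a mitotic cyclin (-0.43, adjusted p = 0.189), which was not called.

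Transcription factors changed in both directions, 8 of 43 higher and 10 lower (9 and 6 under total-count scaling). *Pparg*, a nuclear receptor of lipid handling that GM-CSF is known to induce in lung macrophages, was at 0 to 2.77 CPM (median 1.75) in medium and 5.91 to 23.2 CPM (median 14) with GM-CSF (log2 fold change 3.28 ± 0.46, SE, adjusted p = 8.51e-07). *Ahr*, the aryl hydrocarbon receptor, rose (log2 fold change 2.21 ± 0.50, SE, adjusted p = 0.00108), and *Bhlhe40*, a basic helix-loop-helix repressor, rose (log2 fold change 1.13 ± 0.11, SE, adjusted p = 6.39e-10). *Cebpb*, a factor of inflammatory and growth-factor responses, went from a median of 259.8 to 519 CPM (1.04). *Sall1*, which among brain cells is tied to microglial identity, was at 94.3 to 216 CPM (median 148) in medium and 40.3 to 79.3 CPM (median 66.9) with GM-CSF (log2 fold change -1.21 ± 0.18, SE, adjusted p = 3.53e-06). *Maf*, a basic leucine zipper factor, fell by 0.66 on the log2 scale and lost its call under total-count scaling (-0.55), and *Smad7*, a target and inhibitor of TGF-beta signaling, fell (-0.81) together with the receptor genes *Tgfbr1* (-0.88) and *Tgfbr2* (-0.80), the 3 called genes among 20 of that pathway.

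The vitamin D receptor *Vdr* (chromosome 15, 97854425 to 97910630, GRCm38) had the largest fitted fold change of all tested genes. It had 1 count over the 9 medium libraries and 600 over the 9 GM-CSF libraries, where it was at 4.03 to 14.6 CPM. The ratio of the scaled counts was 583, with an exact 95% interval of 104 to 23062 that covers counting error only. *Plet1*, a surface protein of epithelial and some dendritic cells, was at 0 to 0.834 CPM (median 0) in medium and 2.33 to 62.1 CPM (median 26.8) with GM-CSF (log2 fold change 7.6 ± 0.80, SE, adjusted p = 6.13e-09). *Rnase2a*, a secreted ribonuclease of the eosinophil family, was at 0 to 0.937 CPM (median 0.119) in medium and 4.95 to 19.1 CPM (median 12.2) with GM-CSF, and *Elovl7*, a fatty acid elongase, at 0 to 2.46 CPM (median 0) in medium and 4.94 to 13.9 CPM (median 10.8) with GM-CSF. These 4 genes were at or near 0 in medium and present in all 9 GM-CSF libraries. How large the fitted log2 fold changes were depended on the few medium counts: without 1 medium library each, they were 8.99 for *Vdr* (medium 9), 9.58 for *Plet1* (medium 3) and 4.97 for *Elovl7* (medium 9, against 4.19 with it). Smaller but well separated rises among the genes with the smallest p were those of *Ybx3*, a cold-shock domain protein (1.56), *Coro2a*, an actin-binding coronin (2.33), *Spint1*, an inhibitor of serine proteases (1.43), *Tagln2*, an actin-binding protein (0.95), and *Ier3*, an early-response gene (1.11).

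Of 14 tested genes of alternative macrophage activation, 5 rose and 1 fell. *Arg1*, the enzyme that splits arginine into ornithine and urea, was abundant and reached 176 to 617 CPM (median 289) in medium and 789.9 to 2467 CPM (median 1365) with GM-CSF (log2 fold change 1.98 ± 0.24, SE, adjusted p = 2.87e-07). *Mgl2*, a C-type lectin of dendritic cells and macrophages, rose at a low level, from a median of 0 to 3.06 CPM (log2 fold change 4.76 ± 0.96, SE, adjusted p = 0.000224), with overlap. *Fn1*, fibronectin, rose from a median of 959.8 to 2144 CPM (1.0), and *Mrc1*, the mannose receptor, was not called (0.38). Of 14 purinergic receptors and ecto-enzymes, 4 rose and 4 fell. *Nt5e*, the ecto-enzyme CD73 that makes adenosine, was at 0 to 5.11 CPM (median 2.17) in medium and 5.65 to 27 CPM (median 15.1) with GM-CSF (log2 fold change 2.99 ± 0.42, SE, adjusted p = 9.67e-07), and *Adora2b*, an adenosine receptor, was at 0 to 0.759 CPM (median 0) in medium and 2.02 to 9.46 CPM (median 4.66) with GM-CSF (log2 fold change 4.73 ± 0.46, SE, adjusted p = 6.56e-10). The groups did not overlap for either gene. The size of the changes at such low levels rested on single libraries, with a log2 fold change of 5.78 for *Adora2b* without medium 2 and of 5.65 for *Mgl2* without medium 6.

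**Figure D4:**
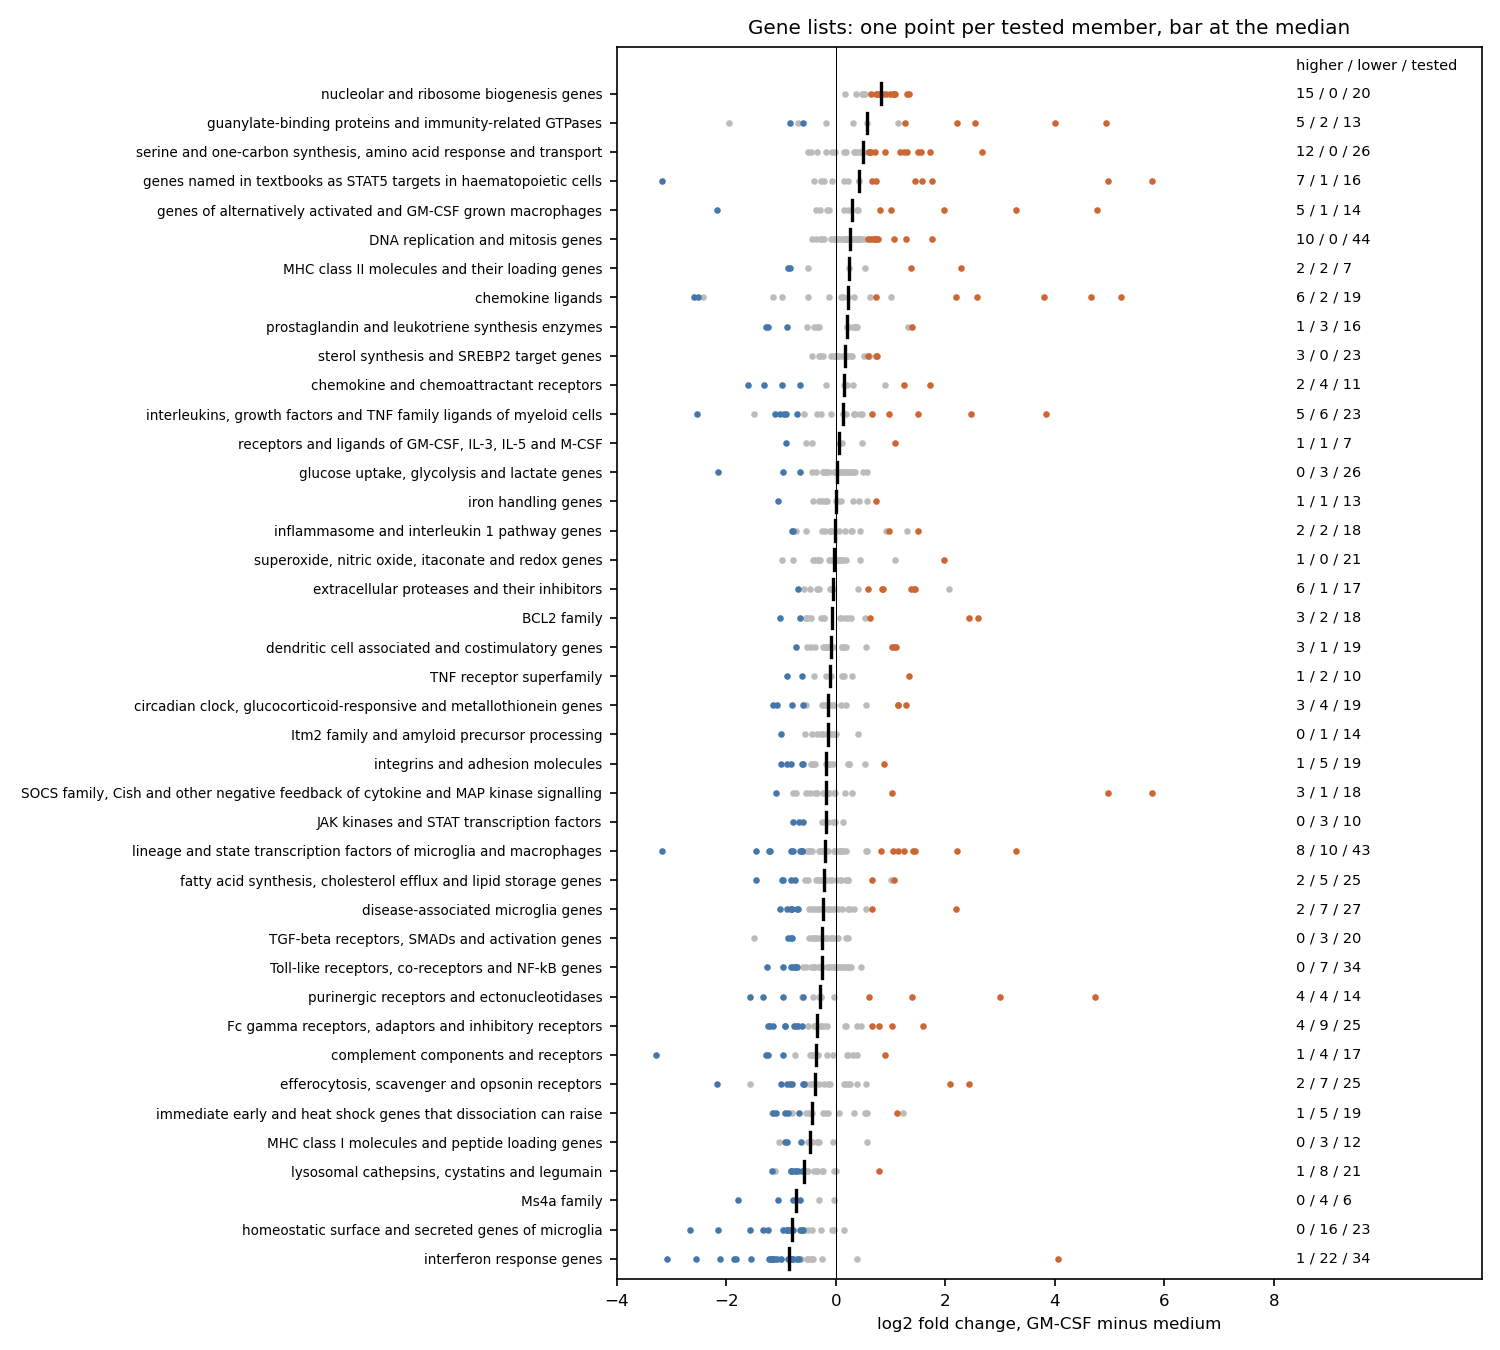
Log2 fold change of GM-CSF minus medium (x) for every tested member of each gene list (rows, ordered by median); colored points are called genes, the black bar is the median, and the numbers give members higher, lower and tested. Ribosome biogenesis has the highest median (0.82) and the interferon response the lowest (-0.86).

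Homeostatic microglia genes fell. Of 23 tested, 0 rose and 16 fell (13 under total-count scaling), with a median of -0.81. *P2ry12*, the ADP receptor of microglial processes, was at 962 to 1591 CPM (median 1238) in medium and 324 to 513 CPM (median 433) with GM-CSF (log2 fold change -1.56 ± 0.11, SE, adjusted p = 5.91e-13). *Gpr34*, a lysophosphatidylserine receptor, was at 1045 to 1555 CPM (median 1209) in medium and 357 to 597 CPM (median 498) with GM-CSF (log2 fold change -1.34 ± 0.11, SE, adjusted p = 1.9e-11). *Crybb1*, a crystallin gene expressed in microglia, was at 41.4 to 99.7 CPM (median 65.6) in medium and 5.91 to 19.6 CPM (median 10.6) with GM-CSF (log2 fold change -2.66 ± 0.20, SE, adjusted p = 9.87e-13). The groups were apart for all 3. *Slc2a5*, the fructose transporter GLUT5, fell (-2.15), as did *P2ry13* (-0.97), *Trem2*, a lipid-sensing receptor (-0.89), and *Tmem119* (-0.87). *Cx3cr1*, the fractalkine receptor, fell by 0.66 and dropped under the fold limit with total-count scaling (-0.55). Among microglia markers that were not called, the complement gene *C1qa* was at -0.33 and the protease gene *Ctss* at -0.51. Of the 14 markers, 1 was above 0, *Itgam*, which encodes CD11b (0.23).

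Other genes with the smallest p among those that fell encode surface and regulatory proteins. *Itm2b*, an integral membrane protein linked to familial dementia, was abundant and went from 4406 to 6241 CPM in medium to 2189 to 2645 CPM with GM-CSF (log2 fold change -0.99 ± 0.06, SE, adjusted p = 3.96e-15). *Lair1*, an inhibitory collagen receptor, fell from a median of 739 to 387 CPM (log2 fold change -0.92 ± 0.06, SE, adjusted p = 5.53e-14). *Nrp1*, a coreceptor for semaphorins and VEGF, fell from 410.0 to 168 CPM (log2 fold change -1.29 ± 0.09, SE, adjusted p = 2.51e-13). None of the 3 overlapped between the groups. *Selenop*, a selenium transport protein, fell (-1.1), and so did *Marcks*, which links the membrane to actin (-1.07), *S1pr1*, a receptor of the lipid sphingosine phosphate (-1.37), *Hfe*, a regulator of iron uptake (-1.29), and *Cd82*, a tetraspanin (-1.08). *Slc40a1*, the iron exporter ferroportin, fell too (-1.06). By fold, the lowest gene with a mean of at least 5 CPM in medium was *Vsig4*, a complement receptor of resident macrophages, at 0 to 11.6 CPM (median 4.82) in medium and 0 to 2.69 CPM (median 0) with GM-CSF (log2 fold change -3.28 ± 0.82, SE, adjusted p = 0.00256), where the groups overlapped and the value without library GM-CSF 6 was -4.04. *Saa3*, an acute-phase protein, fell from 5.21 to 132 CPM (median 78.5) in medium to 2.45 to 35.9 CPM (median 5.74), also with overlap (log2 fold change -2.44 ± 0.56, SE, adjusted p = 0.0014).

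Interferon-stimulated genes fell. Of 34 tested, 22 fell (21 under total-count scaling) and 1 was called higher, with a median log2 fold change of -0.86. *Rtp4*, an interferon-induced transporter protein, was at 15 to 45.4 CPM (median 22.9) in medium and 1.6 to 10.3 CPM (median 5.52) with GM-CSF (log2 fold change -2.12 ± 0.23, SE, adjusted p = 7.9e-09), without overlap. *Slfn5*, a Schlafen family member, fell (log2 fold change -1.86 ± 0.29, SE, adjusted p = 5.16e-06), as did *Xaf1* (log2 fold change -1.17 ± 0.18, SE, adjusted p = 5.32e-06), *Isg15*, a ubiquitin-like modifier (-1.01), *Irf7*, the factor that amplifies the interferon response (-1.22), and *Usp18*, a negative regulator of interferon signaling (-1.17). *Ifit3* fell by 1.54 on the log2 scale, and its near copy *Ifit3b* can share its reads. The gene called higher was *Oas2*, a synthetase of 2-5 oligoadenylate, which had 1 count in medium and 34 in 3 GM-CSF libraries (ratio 33, exact 95% counting interval 5.5 to 1343), and its sign turned in title codes 1A and 1B alone. Its fitted log2 fold change of 4.06 was 3.21 without GM-CSF 9 and 4.95 without medium 3.

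Some guanylate-binding proteins (GBP), GTPases that interferon gamma is known to induce, rose. Of 13 tested GBP and immunity-related GTPase genes, 5 rose and 2 fell (1 under total-count scaling). *Gbp7* (chromosome 3, 142530342 to 142550149, GRCm38) was at 1.07 to 10.8 CPM (median 5.11) in medium and 63.1 to 141 CPM (median 98.5) with GM-CSF (log2 fold change 4.01 ± 0.28, SE, adjusted p = 5.87e-13) and *Gbp3*, its neighbor, at 2.41 to 10.4 CPM (median 4.63) in medium and 24.7 to 34.2 CPM (median 29.2) with GM-CSF (log2 fold change 2.55 ± 0.21, SE, adjusted p = 2.1e-11). *Gbp5* (2.21) and *Gbp9* (1.26) rose as well. *Gbp4*, the fifth, had 1 count in medium and 67 in 6 GM-CSF libraries (ratio 65.1, exact 95% counting interval 11.3 to 2609), and its fitted log2 fold change of 4.93 was 5.84 without medium 6. *Gbp4* and *Gbp5* lost their calls with limma-voom (adjusted p = 0.0578 and 0.0896). GBP genes are close paralogs, and *Gbp4* and *Gbp9* overlap in the annotation, so their counts may include reads of one another. The 2 that fell were immunity-related GTPases, *Irgm1* (log2 fold change -0.84 ± 0.15, SE, adjusted p = 3.98e-05) and *Irgm2* (-0.60), which lost its call without any single one of 8 libraries (GM-CSF 3, GM-CSF 5, GM-CSF 6, GM-CSF 8, GM-CSF 9, medium 1, medium 5, medium 7; log2 fold change -0.58 to -0.49).

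Genes of antigen presentation changed in both directions. *H2-DMa* and *H2-DMb2*, which encode chains of the H2-DM chaperone that loads peptides on MHC class II, rose. *H2-DMa* was at 122 to 175 CPM (median 141) in medium and 267 to 451 CPM (median 385) with GM-CSF (log2 fold change 1.38 ± 0.10, SE, adjusted p = 4.18e-13) and *H2-DMb2* at 2.81 to 13 CPM (median 6.18) in medium and 29.7 to 40.9 CPM (median 35.8) with GM-CSF (log2 fold change 2.29 ± 0.26, SE, adjusted p = 1.82e-08), both without overlap. *H2-Ob*, a chain of the H2-O protein that restrains H2-DM, fell (log2 fold change -0.85 ± 0.21, SE, adjusted p = 0.0024), and its partner *H2-Oa* fell by 0.87, a call that was lost without any single one of 7 libraries (GM-CSF 2, GM-CSF 6, GM-CSF 9, medium 3, medium 5, medium 6, medium 7; adjusted p up to 0.0871). The other 3 tested genes of the class II list were not called: the classical chain *H2-Ab1* (-0.52, adjusted p = 0.0356), the invariant chain *Cd74* (0.54, adjusted p = 0.00772) and *H2-DMb1* (0.24, adjusted p = 0.057). *H2-Ab1* was at 79.9 to 207 CPM (median 146) in medium and 52.6 to 144 CPM (median 95.3) with GM-CSF, and it passed the fold limit without GM-CSF 1, GM-CSF 2 or medium 8 (down to -0.61). *Cd74* passed it without GM-CSF 4 or medium 3 (up to 0.62) and under total-count scaling (0.64), where 3 genes of the list rose and 1 fell. The other classical chains were scarce, as *H2-Aa* had 119 counts and *H2-Eb1* 87 over the 18 libraries, and the class II activator *Ciita* had 8 counts, all in 1 medium library. Of 12 MHC class I and peptide loading genes, 0 rose and 3 fell, with a median of -0.47. *H2-T23*, which encodes the nonclassical Qa-1, fell (log2 fold change -0.89 ± 0.13, SE, adjusted p = 9.41e-07). Of 19 dendritic cell and costimulation genes, 3 rose and 1 fell. *Cd274*, the checkpoint ligand PD-L1, rose from a median of 53.5 to 110.0 CPM (log2 fold change 1.1 ± 0.18, SE, adjusted p = 9.9e-06), *Cd200r1*, an inhibitory receptor, rose (1.03), *Clec4n*, the fungal receptor Dectin-2, rose (1.06), and *Cd83*, a maturation marker, fell (-0.73).

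Among lysosomal enzymes and their inhibitors, 8 of 21 tested genes fell and 1 rose, with a median of -0.57. The proteases cathepsin B (*Ctsb*, log2 fold change -0.83 ± 0.08, SE, adjusted p = 7.27e-10) and cathepsin D (*Ctsd*, log2 fold change -0.81 ± 0.10, SE, adjusted p = 1.14e-07) fell without overlap. The lysosomal gene that rose was *Ctsc*, which activates serine proteases of granules, from a median of 1888 to 3137 CPM (0.78). *Ctsb* and *Ctsd* are also on the list of disease-associated microglia genes, of which 2 rose and 7 fell among 27. *Lipa*, the lysosomal acid lipase, fell (log2 fold change -0.75 ± 0.08, SE, adjusted p = 9.25e-09). Among lipid genes, *Mylip*, which removes the LDL receptor, fell (-0.96). In the leukotriene and prostaglandin pathways *Alox5*, the 5-lipoxygenase, rose (log2 fold change 1.39 ± 0.10, SE, adjusted p = 6.52e-13), while *Ltc4s*, which makes leukotriene C4, fell (log2 fold change -0.89 ± 0.12, SE, adjusted p = 5.24e-07), and *Pla2g7*, a lipoprotein-associated phospholipase, fell (log2 fold change -1.28 ± 0.18, SE, adjusted p = 2.22e-06).

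Scavenger and inhibitory receptors were mixed. *Msr1*, the class A scavenger receptor, was at 152 to 382 CPM (median 199) in medium and 1031 to 1749 CPM (median 1259) with GM-CSF (log2 fold change 2.43 ± 0.17, SE, adjusted p = 1.49e-12), and *Cd300lf*, a lipid-binding receptor, at 9.76 to 25.9 CPM (median 17.4) in medium and 63.8 to 107 CPM (median 76.4) with GM-CSF (log2 fold change 2.09 ± 0.15, SE, adjusted p = 5.91e-13). These were the 2 genes that rose among 25 receptors and bridging molecules of uptake, while 7 fell (5 under total-count scaling, where 3 rose), *Gas6*, a bridge to dying cells (log2 fold change -1.0 ± 0.11, SE, adjusted p = 5.85e-09), among them. Of 25 Fc and paired receptors, 4 rose and 9 fell, *Pilra* being the highest (1.58) and *Siglech* the lowest (-1.23). *Cd72*, an inhibitory lectin, fell (-1.14). Toll-like receptor and NF-kB genes had 0 called higher and 7 lower of 34, with *Cd180*, a TLR4-related receptor (-1.27), *Nfkb1* (-0.82) and the inhibitor *Tnfaip3* (-0.75) as those with the smallest p. Complement genes had 1 higher and 4 lower of 17, *C2* (-0.96) among the latter. Of 6 tested *Ms4a* genes, which encode tetraspan proteins, 4 fell, *Ms4a7* the most (log2 fold change -1.79 ± 0.33, SE, adjusted p = 0.000139). In 17 extracellular proteases and inhibitors, 6 rose, *Adam8* (1.37) among them, and *Timp2*, an inhibitor, fell (-0.70). Of genes that cell isolation is known to raise, 1 of 19 immediate early and heat shock genes rose and 5 fell (3 and 4 under total-count scaling), with *Atf3* at -0.87 and *Btg2* at -0.93.

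The other lists had calls both ways or few calls. Of 19 clock and glucocorticoid-responsive genes, 3 rose, *Fkbp5*, a cochaperone of the glucocorticoid receptor (1.13), among them, and 4 fell, including the kinase *Sgk1* (-0.80). Integrins and adhesion molecules had 1 higher and 5 lower of 19 (2 and 3 under total-count scaling), with *Itgb3*, the beta chain of the vitronectin receptor, at -0.90. Among 21 superoxide, nitric oxide and itaconate genes the call was *Arg1* alone, and among 10 TNF receptors 1 rose, *Tnfrsf26* (1.33), and 2 fell (1 under total-count scaling), *Fas* (-0.89) among them. The iron list had 1 higher and 1 lower of 13, ceruloplasmin (*Cp*, 0.72) and *Slc40a1* (2 higher and 1 lower under total-count scaling), and the lipid list 2 higher and 5 lower of 25. Of 14 Itm2 and amyloid-processing genes, *Itm2b* was the 1 called.

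**Figure D5:**
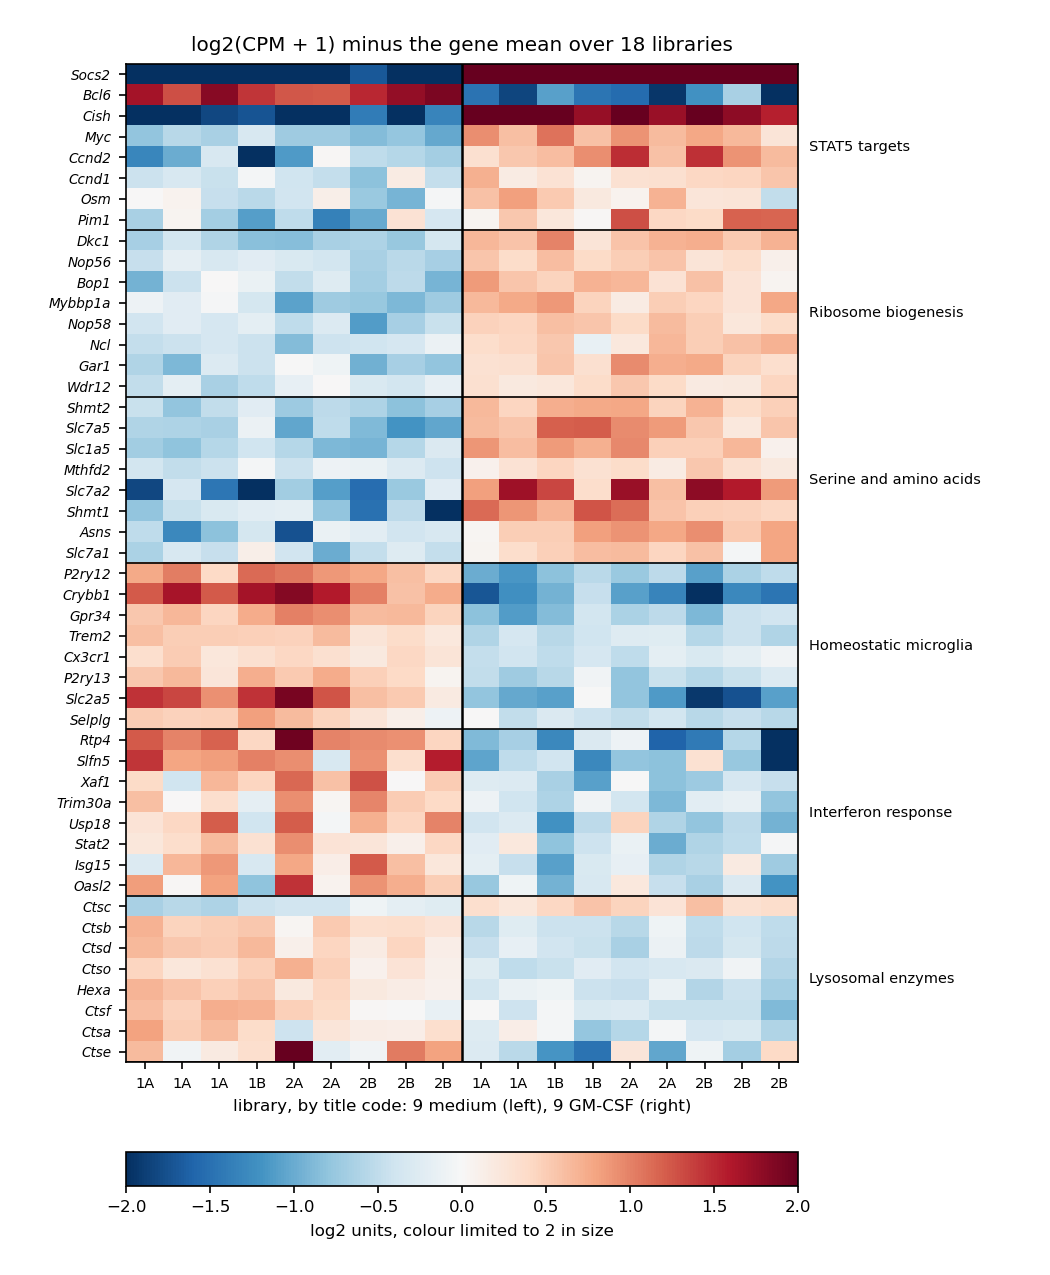
Log2(CPM + 1) minus the gene's mean over the 18 libraries (color, limited to 2 in size) for up to 8 called members with the smallest p among those reported here of 6 gene lists (rows); columns are libraries ordered by group, then title code. STAT5 targets other than *Bcl6*, ribosome biogenesis and amino acid genes are mostly higher in the 9 GM-CSF libraries and homeostatic, most interferon and most lysosomal genes are lower.

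A direct test against the TNF-treated slices showed where the response to GM-CSF differed from that to the other cytokine. The medium libraries are not part of the difference, but they share the fit that gave its spread. The test called 1833 of 11313 genes (16.2%), 900 higher (7.96%) and 933 lower (8.25%) with GM-CSF than with TNF. *Socs2* was at a mean of 170.4 CPM with GM-CSF and 21.5 CPM with TNF (log2 difference 2.99 ± 0.13, SE, adjusted p = 1.96e-19), and *Cish* at 20.5 and 3.93 CPM (log2 difference 2.38 ± 0.33, SE, adjusted p = 3.73e-07). The chemokine *Ccl2* was lower with GM-CSF, at 769 CPM against 1704 CPM with TNF (log2 difference -1.15 ± 0.14, SE, adjusted p = 5.52e-08). Of 23 homeostatic genes, 13 were called higher and 0 lower with GM-CSF than with TNF, *P2ry12* at 429 against 142 CPM (log2 difference 1.6 ± 0.11, SE, adjusted p = 1.48e-14). Of 44 cell cycle genes, 37 were called higher and 2 lower with GM-CSF, *Tyms* at 92.8 against 49.6 CPM (log2 difference 0.90 ± 0.15, SE, adjusted p = 5.52e-06). Of the interferon genes, 0 were called higher with GM-CSF and 34 of 34 were lower, *Isg15* at 6.57 against 283 CPM (log2 difference -5.43 ± 0.20, SE, adjusted p = 4.79e-21). *Bcl6* was at 6.49 CPM with GM-CSF and 45.9 CPM with TNF (log2 difference -2.82 ± 0.20, SE, adjusted p = 1.06e-13).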

How the data were processed

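RNA of microglia sorted from slices was made into libraries with the SMART-Seq v4 and Nextera XT kits, which do not mark strand, so a gene and its antisense partner cannot be told apart. The deposited values are raw counts per gene, whole numbers that the authors did not normalize, and the submitters' processing notes name STAR 2.7.0a, featureCounts of Subread 1.6.4 and mm10. One of 3 tables was used, its 29 slice columns all matched a sample title, and 0 per-sample columns were unmapped. All 55450 identifiers were named from GENCODE M21 (GRCm38).

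Counts were tested by quasi-likelihood in edgeR 4.0.16 (R 4.3.3, TMM, minimum count 10, minimum total 15) in a single fit of the 29 libraries, without covariates, with Benjamini-Hochberg adjustment over all tested genes. Calls needed an adjusted p under 0.05 and a fold change over 1.5. CPM are scaled by the TMM factors, except for the summed markers, which are scaled by total counts. The biological coefficient of variation was 0.281. Pairs of libraries of a group differed by more than read sampling, with a chi-square per degree of freedom of at least 9.08. No molecular identifiers were used, and totals of 6123220 to 9165485 counts limit genes below about 10 CPM most. Alternatives were limma-voom (limma 3.58.1), DESeq2 1.42.0, total-count scaling, other count filters, title code or replicate number as a block, separate codes, a Y-linked covariate and leaving out each library. The scripts were tested on simulated data.

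The 51 gene lists and the naming rule were chosen with earlier results of these data known. Named were the 15 genes with the smallest p and the 8 with the largest fold (at least 5 CPM) in each direction, and in each list up to 3 called genes per direction by p with its lowest and highest; receptor, JAK, STAT, SOCS, MHC class II and marker genes could be named regardless. Not every gene that the rule allows is printed. *Ahr*, *Asns*, *Ccne1*, *Ccne2*, *Cdc6*, *Cxcl3*, *Gbp5*, *Gbp9*, *Ifit3*, *Irf7*, *Isg15*, *Maf*, *Mcm2*, *Mcm4*, *Mcm6*, *Mcm7*, *Osm*, *Pim1* and *Usp18* fall outside it and were chosen after their values were seen. A few genes that entered the fit and the list counts are not reported here by name.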

Additional observations from a re-analysis of the deposited data

Results flagged for a closer look

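Over 344 groups of 9 values (each named gene and 3 library measures, in medium and with GM-CSF), 21 held a library far from the other 8 by Dixon's ratio at the 95% limit. Chance gives about 1 in 20 groups, and no explanation was weighed.

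In medium, library 5 of title code 2A held the highest *Itm2b* (6241 CPM, others 4406 to 4863), *H2-T23* (162 CPM, others 101 to 119) and *Rtp4* (45.4 CPM, others 15.0 to 27.3). Leaving it out kept the calls of all 3. Library 3 of code 1A held the highest *Ccl7* in medium (12.4 CPM, others 2.28 to 6.59) and *Plet1* (0.834 CPM, others at most 0.149), and was the single medium library with *Oas2* (0.119 CPM). *Tgfbr1* was highest in library 2 (590.0 CPM, others 420.4 to 493.8) and *Ier3* lowest in library 8 (112 CPM, others 131 to 149.97). *Cxcl3* (0.831 CPM, library 7), *Gbp4* (0.149 CPM, library 6) and *Vdr* (0.137 CPM, library 9) were each counted in a single medium library.

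With GM-CSF, *Arg1* was highest in library 7 of code 2B (2467 CPM, others 789.9 to 1505), *Cish* in library 3 (34.1 CPM, others 14.3 to 22.6) and *Cd300lf* in library 2 (107 CPM, others 63.8 to 80.1). Among genes that fell, *Fas* was highest in library 7 as well (5.52 CPM, others 1.52 to 3.41), *Tmem119* was highest in library 1 (1319 CPM, others 573.2 to 855.0), *Slc2a5* in library 4 (75.2 CPM, others 19.2 to 43.6), *Usp18* in library 5 (16.1 CPM, others 4.42 to 9.41) and *Vsig4* in library 6 (2.69 CPM, others 0 to 1.23). Library 4 also held the highest *Ccrl2* (38.8 CPM, others 14.1 to 24.5) and library 5 the highest *Eef1g* (164 CPM, others 127 to 145).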

How the results depend on the processing

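The count of called genes (1222, 548 higher and 674 lower) was 1137 to 1235 when each of the 18 libraries was left out in turn (519 to 559 higher and 618 to 687 lower), with the lowest counts without GM-CSF 5. DESeq2 called 1291 genes, of which 1201 were among the 1222, limma-voom 1290 (1133), title code as a block 1253 (1156) and total-count scaling 1276 (1007). Without a filter on low counts 1521 genes were called, and without a fold limit 2892, 1374 higher and 1518 lower (3486 against TNF, from 1833). Codes 1A and 1B alone gave 1216 calls and codes 2A and 2B alone 785, of which 389 were lower, from 5 medium and 5 GM-CSF libraries. In codes 1A and 1B alone the sign turned for *Csf1* (-0.21, adjusted p = 0.422), *Oas2* (-1.55, adjusted p = 0.555) and *Stat5b* (-0.14, adjusted p = 0.665), and the cause was not tested. Of 151 named genes that were called, calls were lost for 5 under total-count scaling, 5 with limma-voom, 1 with DESeq2, 12 in codes 1A and 1B alone (where 150 were tested) and 17 in codes 2A and 2B alone.

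With the replicate number of the titles as a block, 1260 genes were called (627 higher, 633 lower), of which 1107 were among the 1222, and the calls of *Dusp1*, *Fas*, *H2-Oa*, *Irgm2*, *Jak3* and *Oas2* were lost, while *S100a8* (adjusted p = 0.00477) and *S100a9* (0.0236) passed the test. Same-numbered libraries correlated at 0.0168 to 0.111, 2 of 9 pairs over 0.1, and 2 of 9 GM-CSF libraries were closest to their own number. The replicate numbers need not match samples, as GM-CSF 3 has title code 1B and medium 3 has 1A. The titles also carry running numbers, and a pairing by those was not tested.

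The median log2 fold change of 6 lists near 0 changed sign under total-count scaling: extracellular proteases, oxidative burst, TNF receptors, interleukin 1 and inflammasome, BCL2 family and dendritic cell genes. At this depth, genes with a handful of counts in medium, such as *Vdr*, *Plet1* and *Gbp4*, kept their direction without each library while the size of their fold moved.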

Other observations

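Beyond the lists above, whole families of the biosynthetic machinery were counted after values had been seen, so their choice is not independent of these data. Enzymes of purine and pyrimidine synthesis were called higher in 9 of 16 and lower in 0, with a median log2 fold change of 0.64. Subunits of the CCT chaperonin, which folds actin and tubulin, were higher in 5 of 7 (median 0.63). Cytosolic aminoacyl-tRNA synthetases, which charge tRNA with amino acids, were higher in 7 of 20 (median 0.48).

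The proteins of the ribosome itself moved less. Of 82 cytosolic ribosomal protein genes, 80 had a log2 fold change above 0 and 7 were called higher, with a median of 0.37, and of 76 mitochondrial ones 5 were called (median 0.33). RNA polymerase I genes had 2 of 19 higher (median 0.26) and translation initiation factors 4 of 52 (median 0.22). The 38 proteasome genes had a median of 0.24, and 1 of 17 genes of the V-ATPase, which acidifies lysosomes, was higher (median -0.14). The families with calls named here had 0 genes called lower, and the median over all genes was -0.0391. Over all tested genes 4.84% were called higher. The shares among mitochondrial ribosomal protein, initiation factor and V-ATPase genes were near that.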
